A study of Mus musculus with 12 samples.

Results

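Resident macrophages are immune cells that live in a tissue, and 10 genes that mark them were followed across 12 bulk RNA-seq libraries of mouse pituitary: Csf1r, Cx3cr1, C1qa, C1qb, C1qc, Adgre1, Cd68, Aif1, Mrc1 and Tyrobp. The genes are a chosen list of known macrophage markers, and their IDs in the count tables were matched to mouse symbols. They are 10 of the 55421 gene IDs, and all 10 were among the 22630 genes with enough counts to be tested. The study asked what the ligand AA14 does in the pituitary of mice with or without cre-mediated deletion of Gpr101, an orphan G protein-coupled receptor. All mice were C57BL/6, carried a floxed Gpr101 gene (Gpr101 fl/fl), received an adeno-associated virus and were dosed for 1 week. The 4 groups of 3 libraries were cre AA14 (Cga-creAAVGpr101fl/fl, AA14), ctrl AA14 (Cga-ctrlAAVGpr101fl/fl, AA14), cre vehicle (Cga-creAAVGpr101fl/fl, control vehicle) and ctrl vehicle (Cga-ctrlAAVGpr101fl/fl, control vehicle). Library numbers are those of the sample titles. The genotype names put Cga, the gene of the glycoprotein hormone alpha subunit, beside the virus; whether its promoter drives cre, which cells took up the virus, and the age and sex of the mice, are not given in the labels. Pituitaries were dispersed to single cells before RNA was taken, and the part of flow cytometry in choosing those cells is not given. It is not stated that each library is another mouse, and the p-values describe spread among libraries, which may be technical.

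Macrophages settle in the pituitary as in most organs, where they take up debris and dying cells and sense damage. They depend on the receptor encoded by Csf1r, which binds the growth factors Csf1 and Il34, and many carry the fractalkine receptor Cx3cr1. Tissue macrophages are a main source of C1q, the recognition molecule of the classical complement pathway, which is built from chains encoded by C1qa, C1qb and C1qc.

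The 3 C1q genes lie side by side on the minus strand of chromosome 4 of the GRCm38 build. C1qb (ENSMUSG00000036905) spans chr4:136880129-136886187, C1qc (ENSMUSG00000036896) spans chr4:136889804-136893065 and C1qa (ENSMUSG00000036887) spans chr4:136895917-136898803. Only 3616 bases lie between C1qb and C1qc, and 2851 bases between C1qc and C1qa. Promoter windows of 300 bases, 250 before and 50 after the annotated start, were found for 6 of the 10 genes in a RefSeq table of GRCm38.p6; Csf1r, C1qa, Adgre1 and Tyrobp were not among them. The windows of C1qb and C1qc are shown because these neighbours had nearly the same pattern over the libraries, Cd68 because its pattern was different, and Cx3cr1 because it differed most from C1q. Capitals mark the core of a PU box, the binding motif of the myeloid factor PU.1, searched as GAGGAA on both strands, so that it reads GAGGAA or TTCCTC here.
C1qb, chr4:136886151-136886450, minus strand: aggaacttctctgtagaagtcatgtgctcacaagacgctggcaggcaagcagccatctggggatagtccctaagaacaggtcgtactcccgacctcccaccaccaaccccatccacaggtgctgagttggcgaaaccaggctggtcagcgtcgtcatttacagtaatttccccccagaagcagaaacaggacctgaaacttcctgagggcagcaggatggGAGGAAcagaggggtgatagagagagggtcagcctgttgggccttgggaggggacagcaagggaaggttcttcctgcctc
C1qc, chr4:136892865-136893164, minus strand: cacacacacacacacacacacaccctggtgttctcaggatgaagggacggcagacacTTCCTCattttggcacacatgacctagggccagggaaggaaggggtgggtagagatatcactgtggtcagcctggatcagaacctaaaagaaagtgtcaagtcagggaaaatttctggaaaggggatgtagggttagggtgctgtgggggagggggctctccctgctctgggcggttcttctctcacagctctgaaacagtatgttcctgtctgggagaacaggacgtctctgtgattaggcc
Cd68, chr11:69666121-69666420, minus strand: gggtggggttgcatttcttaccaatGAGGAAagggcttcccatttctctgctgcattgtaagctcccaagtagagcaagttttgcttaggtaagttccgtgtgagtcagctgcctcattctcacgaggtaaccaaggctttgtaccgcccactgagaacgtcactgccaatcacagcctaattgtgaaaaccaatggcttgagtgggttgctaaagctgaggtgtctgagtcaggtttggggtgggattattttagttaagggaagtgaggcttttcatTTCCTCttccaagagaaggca
Cx3cr1, chr9:120068247-120068546, minus strand: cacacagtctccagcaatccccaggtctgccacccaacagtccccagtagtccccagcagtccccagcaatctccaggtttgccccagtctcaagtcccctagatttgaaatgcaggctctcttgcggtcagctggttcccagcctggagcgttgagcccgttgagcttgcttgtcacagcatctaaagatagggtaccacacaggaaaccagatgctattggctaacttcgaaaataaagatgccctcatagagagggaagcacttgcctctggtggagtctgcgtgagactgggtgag
The 6 letters stood at position -30 in C1qb, counted from the start,, at -193 in C1qc, and at -225 and 30 in Cd68, and the Cx3cr1 window had none. Over the 6 windows found, 5 held the PU box (Mrc1, C1qb, C1qc, Cd68 and Aif1), against 28.3% of 32851 promoters in the table. The AP-1 letters TGANTCA were in Cd68 alone, at -149 and -24, against 7.81% of all promoters. The C/EBP letters TTGCNNAA were also in Cd68 alone (10.8% of all), the MAF half-site TGCTGA in C1qb alone (19.5%), and TATAAA in none of the 6 (13.6%). Each motif was searched on both strands, no marked PU box overlapped one of the other motifs, and a match of letters is no evidence of binding.

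Totals ranged from 48693682 to 73388221 counts per library. Levels are given as CPM, a gene's counts scaled to the size of its library, with sizes adjusted by the trimmed mean of M values (TMM). The 10 genes had between 184 counts (Aif1 in its lowest library, a counting error of 7.37%) and 4306 counts (Csf1r in its highest). Hormone genes of the pituitary summed to between 168500 and 319500 CPM in every library. Gpr101, the targeted gene, had 2.57, 2.43 and 0.901 CPM in cre AA14 libraries, 3.29, 2.20 and 6.60 CPM in ctrl AA14, 2.43, 4.29 and 1.29 CPM in cre vehicle, and 1.65, 1.22 and 16.1 CPM in ctrl vehicle. The cre and ctrl values of Gpr101 overlapped under both treatments. Libraries stood apart in further ways, and the Malat1 one follows the groups in ctrl mice. The 8 oligodendrocyte markers summed to 3393 CPM in cre vehicle 2, 2523 CPM in ctrl vehicle 3 and 782 CPM in ctrl AA14 1, against 80.2 to 474 CPM in the other 9. Malat1, a nuclear RNA, lay between 1105 and 1560 CPM in 5 libraries (ctrl AA14 1 to 3, cre vehicle 1 and cre AA14 2) and between 199 and 549 CPM in the other 7. Stress and dissociation genes summed to 4277 CPM in cre AA14 1 and to at most 1176 CPM elsewhere. Red cell genes summed to between 778 and 7782 CPM.

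No gene of the 10 passed the test in any comparison (edgeR quasi-likelihood test, adjusted p of 0.05), where between 0% and 0.00442% of all genes did. At an unadjusted p under 0.05, 3 of the 10 passed for AA14 in control-virus mice, against 23.8% of all genes, and none in the other comparisons, and the counts by other tools stand with each comparison. In control-virus mice given AA14, 9 of the 10 were lower than under vehicle, and the values of Csf1r, C1qa, C1qb and Adgre1 did not overlap between the groups, as was so for 20.1% of all genes. With cre virus, 8 of the 10 were higher under AA14 than under vehicle, by small amounts. Fewer macrophages and less RNA per macrophage cannot be told apart in bulk libraries, here and throughout.

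Csf1r (ENSMUSG00000024621) encodes the receptor that macrophages need for survival. It lies at chr18:61100598-61132149. It had 23.9, 22.4 and 29.8 CPM in cre AA14 libraries, 25.7, 22.5 and 17.5 CPM in ctrl AA14, 25.3, 39.0 and 23.5 CPM in cre vehicle, and 31.9, 26.4 and 59.1 CPM in ctrl vehicle. The highest values were ctrl vehicle 3 and cre vehicle 2, which are also the libraries highest in oligodendrocyte markers. The lowest was ctrl AA14 3. In ctrl mice Csf1r averaged 21.9 ± 4.10 CPM under AA14 and 39.1 ± 17.5 CPM under vehicle (SD, n = 3 each), and the groups did not overlap, with 25.7 CPM the highest under AA14 and 26.4 CPM the lowest under vehicle. The log2 fold change was -0.84 (SE 0.30) with an unadjusted p of 0.0184 and an adjusted p of 0.151 in edgeR's quasi-likelihood test. Without the 3 libraries rich in oligodendrocyte markers it was -0.51, without ctrl vehicle 3 alone it was -0.41, and with Malat1 as a term it was -0.20. Csf1r shares 873 exon bases, 15.1% of its exons, with Hmgxb3 on the opposite strand, which had 17.7 to 34.8 CPM; the strand setting of the counting is not given, so its count is uncertain.

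Cx3cr1 (ENSMUSG00000052336, chr9:119901616-120069879, minus strand) encodes the receptor for fractalkine. It had 11.8, 8.54 and 14.6 CPM in cre AA14 libraries, 7.43, 9.27 and 7.36 CPM in ctrl AA14, 8.11, 15.8 and 12.4 CPM in cre vehicle, and 21.1, 14.8 and 6.62 CPM in ctrl vehicle. The ctrl vehicle group held both the highest and the lowest value of all 12 libraries, so its range took in all the others. In ctrl mice Cx3cr1 averaged 8.02 ± 1.08 CPM under AA14 and 14.2 ± 7.27 CPM under vehicle (SD, n = 3 each), a log2 fold change of -0.82 (SE 0.38, adjusted p = 0.219, edgeR). The library with 6.62 CPM, ctrl vehicle 3, is the one in which Csf1r was highest; without it the Cx3cr1 change was -1.16, and without ctrl vehicle 1 it was -0.42. With limma-voom the change was -0.96, at an adjusted p of 0.0331. That fit called 3409 of 22630 genes in all. Cx3cr1 is the only one of the 10 genes that any tool called, and in this comparison alone. Its promoter window, shown above, had no PU box letters.

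C1qa encodes a chain of the C1q complex. C1qa had 39.9, 29.3 and 33.5 CPM in cre AA14 libraries, 33.3, 32.0 and 20.4 CPM in ctrl AA14, 38.5, 32.6 and 27.4 CPM in cre vehicle, and 53.0, 34.4 and 46.7 CPM in ctrl vehicle. The lowest library was ctrl AA14 3 and the highest ctrl vehicle 1. The ctrl groups did not overlap, though 33.3 and 34.4 CPM are close. C1qa averaged 28.6 ± 7.10 CPM in ctrl AA14 and 44.7 ± 9.49 CPM in ctrl vehicle (SD, n = 3 each). The log2 fold change was -0.65 (SE 0.23), with an unadjusted p of 0.0168 and an adjusted p of 0.147 in edgeR. With Malat1 as a term the C1qa change was -0.56.

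C1qb, the neighbouring gene, had 41.4, 24.5 and 31.4 CPM in cre AA14 libraries, 31.3, 30.0 and 25.6 CPM in ctrl AA14, 34.3, 29.7 and 28.2 CPM in cre vehicle, and 46.2, 31.9 and 43.2 CPM in ctrl vehicle. The ctrl groups again did not overlap, with 31.3 CPM the highest under AA14 and 31.9 CPM the lowest under vehicle. Its log2 fold change there was -0.48 (SE 0.21, unadjusted p = 0.0392, adjusted p = 0.191, edgeR), and -0.25 with Malat1 as a term. C1qc, which lies between the others, had 36.8, 27.0 and 30.0 CPM in cre AA14 libraries, 33.0, 35.5 and 28.5 CPM in ctrl AA14, 33.7, 27.9 and 26.1 CPM in cre vehicle, and 41.6, 29.9 and 37.5 CPM in ctrl vehicle. Its ctrl groups overlapped and its log2 fold change was -0.17 (SE 0.18, adjusted p = 0.592, edgeR), with -0.06 without ctrl vehicle 1 and -0.29 without ctrl vehicle 2. All 3 fold changes were negative, and their differences from one another were not tested.

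Adgre1 (chr17:57358691-57483527) encodes the F4/80 antigen, a surface protein used to identify mouse macrophages. Adgre1 had 10.7, 9.37 and 8.56 CPM in cre AA14 libraries, 8.86, 7.71 and 8.05 CPM in ctrl AA14, 9.85, 7.09 and 8.77 CPM in cre vehicle, and 12.1, 9.41 and 10.6 CPM in ctrl vehicle. Every ctrl AA14 library was below every ctrl vehicle library, and the log2 fold change was -0.38 (SE 0.19, adjusted p = 0.247, edgeR). With Malat1 as a term the Adgre1 change was -0.47. Mrc1 (chr2:14229392-14332057) encodes the mannose receptor CD206, typical of macrophages along vessels and tissue borders. Mrc1 ranged from 3.87 CPM in ctrl vehicle 2 to 8.56 CPM in ctrl vehicle 3, with the other 10 libraries between 3.91 and 6.01 CPM. All 4 groups overlapped in Mrc1.

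Cd68 (chr11:69664213-69666153, minus strand) encodes a protein of lysosomes and late endosomes. Cd68 had 9.95, 9.83 and 7.57 CPM in cre AA14 libraries, 8.46, 9.75 and 8.84 CPM in ctrl AA14, 7.28, 6.29 and 7.34 CPM in cre vehicle, and 7.32, 6.78 and 8.96 CPM in ctrl vehicle. It was the only one of the 10 genes with a higher mean under AA14 in both kinds of mice. The cre groups did not overlap, with 7.57 CPM the lowest under AA14 and 7.34 CPM the highest under vehicle. Cd68 averaged 9.11 ± 1.34 CPM in cre AA14 and 6.97 ± 0.590 CPM in cre vehicle (SD, n = 3 each), a log2 fold change of 0.39 (SE 0.19, unadjusted p = 0.0709, adjusted p = 1.00, edgeR). In ctrl mice its log2 fold change was 0.23 (SE 0.19, adjusted p = 0.490, edgeR), and the groups overlapped.

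Aif1 (chr17:35170991-35176068, minus strand) encodes Iba1, a calcium-binding protein of macrophages and microglia. Aif1 had the fewest counts, ranging between 2.79 and 6.32 CPM, and both ends of that range were ctrl vehicle libraries (2 and 1). Tyrobp (chr7:30413760-30417585) encodes DAP12, the adaptor that carries signals from receptors such as Trem2. Tyrobp had 9.08, 7.65 and 7.49 CPM in cre AA14 libraries, 7.0, 9.12 and 6.67 CPM in ctrl AA14, 8.23, 6.09 and 7.12 CPM in cre vehicle, and 10.6, 6.49 and 10.3 CPM in ctrl vehicle. Its groups overlapped in every comparison.

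**Figure D1:**
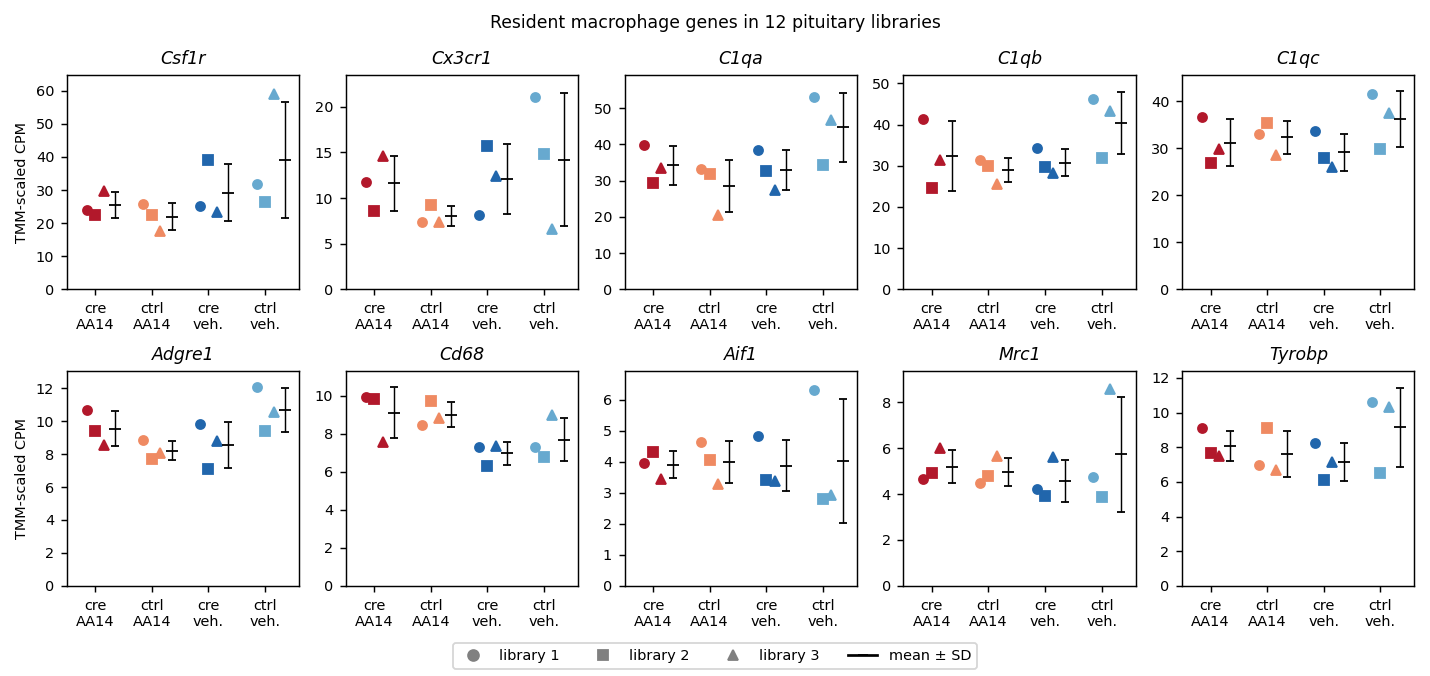
TMM-scaled CPM of each of the 10 genes in the 12 libraries, by group, with the mean ± SD of each group (n = 3) beside the points; marker shapes are the library numbers. The ctrl vehicle group has the largest SD for Csf1r, Cx3cr1, C1qa, C1qc, Aif1, Mrc1 and Tyrobp, and Csf1r reaches 59.1 CPM in ctrl vehicle 3.

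Per kilobase of exon the C1q genes stood at the top. Mean levels were 33.7 CPM per kb for C1qa, 30.5 for C1qb, 16.7 for C1qc, 12 for Tyrobp, 6.52 for Cd68, 5.01 for Csf1r, 2.86 for Adgre1, 2.57 for Aif1, 2.55 for Cx3cr1 and 0.804 for Mrc1. Ranges over the 12 libraries were clear of the next gene for C1qb over C1qc, Tyrobp over Cd68 and Cx3cr1 over Mrc1. C1qa was above C1qb in 11 of 12 libraries, but their ranges overlapped. Adgre1, Aif1 and Cx3cr1 could not be ordered, since Adgre1 was above Aif1 in 7 of 12 libraries and Aif1 above Cx3cr1 in 6 of 12.

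The genes did not vary in one pattern. C1qa, C1qb, Tyrobp, C1qc and Adgre1 followed the mean of the other 9 genes over the 12 libraries, with Pearson r of 0.91, 0.90, 0.81, 0.80 and 0.72. Csf1r (0.43), Aif1 (0.28), Mrc1 (0.13), Cx3cr1 (0.04) and Cd68 (-0.08) followed it less. These libraries share groups and library state, so r is a description and carries no p. Spread over the libraries was widest for Cx3cr1, with an SD of log2 CPM of 0.53, then Csf1r at 0.45 and C1qa at 0.36. It was narrowest for C1qc (0.21), Adgre1 (0.22) and Cd68 (0.22).

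**Figure D2:**
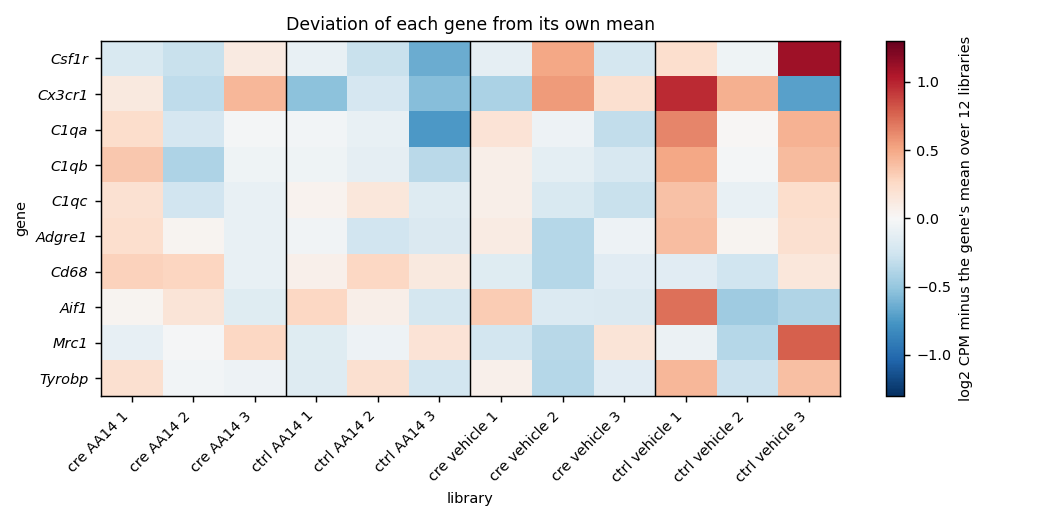
Deviation of the log2 CPM of each gene from its own mean over 12 libraries, with genes in rows, libraries in columns and groups parted by lines. Ctrl vehicle 1 is the highest of the 12 libraries in Cx3cr1 (0.97), Aif1 (0.72), the C1q genes, Tyrobp and Adgre1, and is above the mean in Csf1r. It is below the mean in Cd68 (-0.15) and Mrc1 (-0.08). Ctrl vehicle 3 is high in Csf1r (1.10) and Mrc1 (0.78) but low in Cx3cr1 (-0.70).

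Ratios between genes of one library show the same. Of 45 pairs, C1qc and Tyrobp kept the steadiest ratio, between 3.53 and 4.72 (SD of the log2 ratio 0.14), followed by C1qb and C1qc (0.84 to 1.15, SD 0.14) and C1qa and C1qb (0.80 to 1.19, SD 0.15). Ctrl AA14 3 was the library with C1qa lowest relative to C1qb and C1qc, and it had the lowest C1qa of all. Cx3cr1 and Mrc1 were the least steady pair, with a ratio between 0.77 and 4.46 (SD 0.72). Relative to C1qa, Csf1r was above 1 in cre vehicle 2 and ctrl vehicle 3 alone, which are the libraries highest in oligodendrocyte markers.

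**Figure D3:**
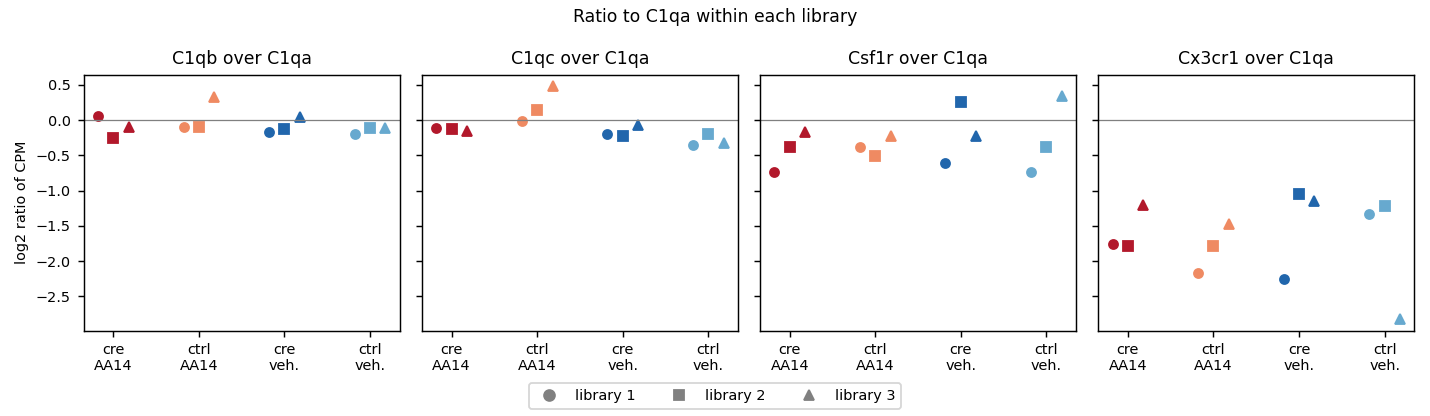
Log2 ratio of the CPM of C1qb, C1qc, Csf1r and Cx3cr1 to that of C1qa in each library, by group; marker shapes are library numbers. The C1qb ratio stays between -0.26 and 0.33, while the Cx3cr1 ratio spans -2.82 to -1.05.

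Genes outside the 10 whose pattern over the 12 libraries was most like the mean of the 10 were ranked over 16396 genes that averaged 1 CPM or more. The first 10 were C2cd4d (Pearson r 0.91), Lhfpl2 (0.90), Mrpl41 (0.89), Rnasek (0.89), Mpeg1 (0.89), Themis2 (0.88), Cyth4 (0.87), Ttc34 (0.87), Gpx4-ps2 (0.86) and Svbp (0.86). Mpeg1 encodes perforin-2, a pore-forming protein of macrophages, and had 26.7 to 47.7 CPM. Gpx4-ps2 is a pseudogene of Gpx4, so its counts are uncertain. P2ry13, a purine receptor of microglia, came at rank 11 (0.86) and Vav1, a signalling protein of blood cells, at rank 13 (0.86). With 12 libraries and this many genes, high values of r are found by rank alone, and no p is given.

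AA14 against vehicle in control-virus mice called 0 of the 10 genes at an adjusted p of 0.05 in edgeR, with 1 of 22630 genes called in all (0.00442%). At an unadjusted p under 0.05 it was 3 of 10 (Csf1r, C1qa and C1qb), against 23.8% of all genes, so the share is near that of all genes. That count was 0 without ctrl AA14 3, against 13.6% of all genes, and 1 without ctrl vehicle 1, against 21.6%. With Malat1 as a term the count was 0, against 2% of all genes. DESeq2 called 0 of the 10 and 2299 of all genes, with 4 of the 10 under an unadjusted p of 0.05, against 27.5% of all genes, and limma-voom called 1 of the 10 and 3409 of all genes, with 4 of the 10 under an unadjusted p of 0.05, against 33% of all genes. The groups did not overlap, with AA14 lower, for 4 of the 10 genes (Csf1r, C1qa, C1qb, Adgre1), against 20.1% of all genes. The median log2 fold change of the 10 was -0.32, against -0.02 over all genes. With Malat1 as a term the median of the 10 was -0.22, against -0.02 over all genes. All 3 ctrl AA14 libraries were Malat1-rich and no ctrl vehicle library was, so in this comparison treatment and Malat1 state cannot be told apart. Markers of other cells were split. Lower were 5 of 5 posterior lobe markers (median log2 -1.58, 3 at an unadjusted p under 0.05 in edgeR). So were 6 of 6 folliculostellate and stem cell markers (median log2 -1.58, 2 at an unadjusted p under 0.05 in edgeR). Oligodendrocyte markers were lower in 8 of 8, and fibroblast and mural markers in 4 of 6. Higher were 4 of 6 endothelial markers, 5 of 5 red cell genes and 5 of 7 hormone genes (3 of the hormone genes at an unadjusted p under 0.05 in edgeR). None in these lists was called in edgeR. The posterior lobe markers summed to 20.5 to 26.5 CPM in ctrl AA14 and to 56.4 to 437 CPM in ctrl vehicle, the folliculostellate and stem cell markers to 106.5 to 208.5 CPM in ctrl AA14 and to 183 to 857 CPM in ctrl vehicle, and both were highest in ctrl vehicle 3 within these groups. The part of these lists in the values of the 10 genes was not tested. The summed level of the 10 was 164, 165 and 132 CPM in ctrl AA14 and 235, 167 and 234 CPM in ctrl vehicle.

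AA14 against vehicle in cre-virus mice called 0 of 22630 genes (0%) and none of the 10 in edgeR. No gene of the 10 had an unadjusted p under 0.05, against 2.29% of all genes. DESeq2 and limma-voom called none of the 10 here either. The median log2 fold change of the 10 was 0.09, against -0.002 over all genes, and it was -0.03 without cre AA14 1. Cd68, described above, was the only gene of the 10 whose groups did not overlap, against 3.32% of all genes with AA14 higher. The summed level was 192, 148 and 172 CPM in cre AA14 and 174, 172 and 150 CPM in cre vehicle. In the same comparison 7 of 7 inflammation genes tested were higher under AA14, 6 of them at an unadjusted p under 0.05 and 0 called in edgeR; their list summed to 185 CPM in cre AA14 1 and to 38.6 to 61.7 CPM in the other 11 libraries. Stress and dissociation genes were higher in 7 of 7, 3 of them at an unadjusted p under 0.05 and 0 called in edgeR, and summed to 4277 CPM in cre AA14 1, against 144 to 1176 CPM in the other 11. The part of these lists in the values of the 10 was not tested.

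Cre against ctrl virus under vehicle gave lower fitted values for all 10 genes, but none was called in edgeR (all genes 0.00442%), in DESeq2 or in limma-voom. None of the 10 had an unadjusted p under 0.05 in edgeR, against 2% of all genes, and 3 did in limma-voom, against 4.39% of all genes there. The median was -0.32, against -0.02 over all genes. C1qa had the largest fitted difference, with a mean of 32.8 ± 5.54 CPM in cre vehicle and 44.7 ± 9.49 CPM in ctrl vehicle (log2 -0.45, SE 0.23, adjusted p = 1.00, edgeR). Csf1r stood at -0.42 and rested on ctrl vehicle 3, since it was 0.005 without that library. Without ctrl vehicle 2 the median was -0.49, and 4 of the 10 had an unadjusted p under 0.05, against 3.39% of all genes in that fit. This comparison shares its ctrl vehicle libraries with that of AA14 in control-virus mice.

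Cre against ctrl virus under AA14 called none of the 10 and none of all genes (0%) in edgeR. None of the 10 was under an unadjusted p of 0.05, against 8.52% of all genes. DESeq2 called 34 of all genes and limma-voom 0, with none of the 10 in either, and 1 of the 10 had an unadjusted p under 0.05 in limma-voom, against 26% of all genes there. The median was 0.13 over the 10, 8 of which were higher with cre, against -0.006 over all genes. It was 0.06 without ctrl AA14 3, 0.06 without cre AA14 1, 0.05 with upper-quartile factors and 0.02 with Malat1 as a term. Cx3cr1 had the largest fitted difference, with means of 11.6 ± 3.02 CPM in cre AA14 and 8.02 ± 1.08 CPM in ctrl AA14 (log2 0.53, SE 0.38, adjusted p = 0.689, edgeR), and the log2 value was 0.34 without cre AA14 3 and 0.22 with Malat1 as a term.

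The interaction, which asks whether the AA14 difference depends on the virus, called none of the 10, against 0.00442% of all genes, and none was under an unadjusted p of 0.05, against 7.03%. All 10 fitted interactions were positive, with a median of 0.49 against 0.03 over all genes. The interaction shares its ctrl vehicle libraries with the comparisons above, so its signs are no separate observation. In those libraries the 10 genes summed to 234.9, 166.7 and 234.5 CPM. C1qa gave 0.71 (SE 0.33, unadjusted p = 0.0523, adjusted p = 0.631, edgeR). The median was 0.29 without ctrl vehicle 3, 0.32 without the 3 libraries rich in oligodendrocyte markers and 0.32 with Malat1 as a term. DESeq2 and limma-voom called none of the 10, and 2 of the 10 were under an unadjusted p of 0.05 in limma-voom, against 13.8% of all genes there.

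**Figure D4:**
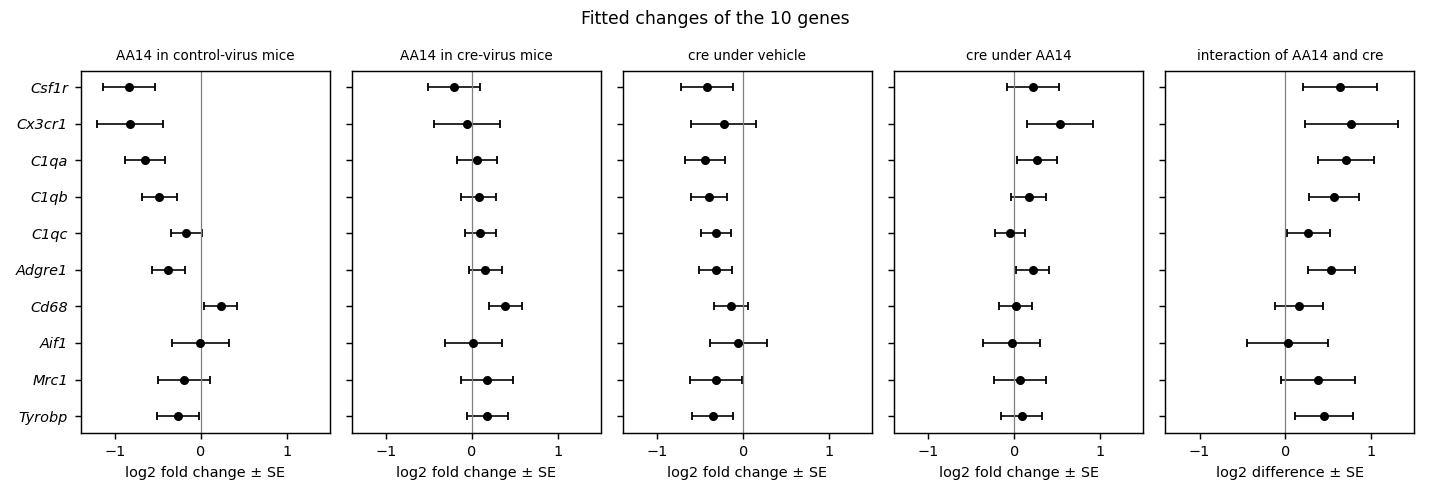
Fitted log2 fold change of each of the 10 genes, or log2 difference of differences for the interaction, with its SE, in the 4 comparisons and their interaction; positive values are higher in AA14 in the panels named for AA14 and higher in cre in those named for cre. Most error bars for AA14 in cre-virus mice and for cre under AA14 cross 0, and no gene was called in any panel.

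The ligands listed for macrophages were low or uneven. Csf1 had 10.9, 5.87 and 9.54 CPM in cre AA14 libraries, 6.22, 5.90 and 4.14 CPM in ctrl AA14, 9.26, 11.8 and 8.84 CPM in cre vehicle, and 8.87, 7.55 and 16.8 CPM in ctrl vehicle. Il34 reached 9.62 CPM in ctrl vehicle 3, against 0.748 to 3.01 CPM in the other 11. Cx3cl1, the ligand of Cx3cr1, reached 128 CPM in cre vehicle 3 and was lowest, at 14.3 CPM, in ctrl vehicle 1. Csf2, another growth factor of macrophages, had no count in any library, and neither did Vsig4, a complement receptor of some resident macrophages. Of the 4 ligands tested (Csf1, Il34, Cx3cl1 and Tgfb1), all 4 were lower with AA14 in ctrl mice and 0 were called in edgeR. Their median was -1.23, with values from -1.60 to -0.06. Tgfb1 split by Malat1, lying between 2.17 and 3.28 CPM in the 5 Malat1-rich libraries and between 4.63 and 12.1 CPM in the other 7.

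Of 7 transcription factors that set macrophage identity (Spi1, Irf8, Maf, Cebpa, Runx1, Mef2c, Sall1), 7 had a negative log2 fold change with AA14 in ctrl mice, with a median of -0.98, and 5 had an unadjusted p under 0.05, against 23.8% of all genes, but 0 were called in edgeR. Spi1, which encodes PU.1, averaged 2.09 ± 0.776 CPM in ctrl AA14 and 5.31 ± 1.67 CPM in ctrl vehicle (log2 -1.34, SE 0.48, adjusted p = 0.149, edgeR). Cebpa averaged 2.73 ± 0.767 CPM in ctrl AA14 and 8.34 ± 1.36 CPM in ctrl vehicle (log2 -1.61, SE 0.38, adjusted p = 0.141, edgeR). Maf, Cebpa and Sall1 also split by Malat1: Cebpa lay between 2.06 and 4.42 CPM in the 5 Malat1-rich libraries and between 6.58 and 9.91 CPM in the other 7. None of the 10 macrophage genes split fully that way. They summed to 132 to 174 CPM in the Malat1-rich libraries and to 150 to 235 CPM in the other 7. Several of the transcription factors are also made by other pituitary cells. The part of library state in these values was not tested.

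**Figure D5:**
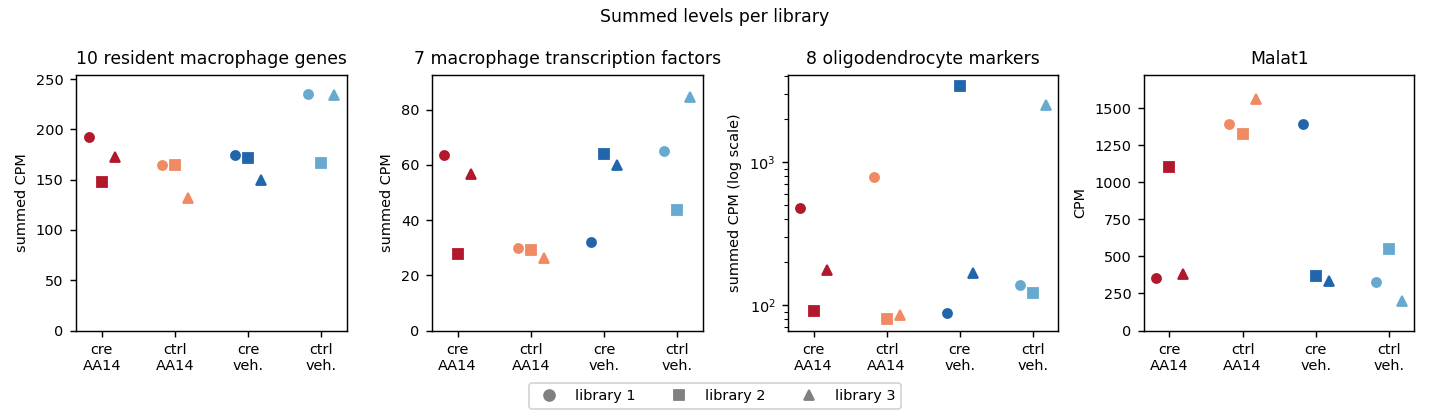
Summed CPM of the 10 macrophage genes, of 7 macrophage transcription factors and of 8 oligodendrocyte markers (log axis), and CPM of Malat1, in each library by group. The factors sum to 26.4 to 32.0 CPM in the 5 Malat1-rich libraries and to 43.7 to 84.6 CPM in the other 7. The 10 macrophage genes sum to 132 to 174 CPM in those 5 and to 150 to 235 CPM in the other 7, and these ranges overlap.

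Other genes of the macrophage pathways, listed for their roles, were split. In AA14-treated ctrl mice 8 of 12 genes of DAP12 signalling (median log2 -0.11) and 8 of 12 complement genes (-0.29) were lower. So were 11 of 16 genes of phagocytosis and lysosomes (-0.15), 6 of 9 border macrophage genes (-0.155) and 8 of 10 microglia genes (-0.56). Of all genes, 50.9% were lower, and none in any list was called in edgeR. The microglia genes ran from -1.56, which was Tmem119, to 0.41, and 2 of the 10 were higher. Tmem119, a microglial surface protein, averaged 4.31 ± 1.09 CPM in ctrl AA14 and 12.7 ± 4.30 CPM in ctrl vehicle (log2 -1.56, SE 0.35, adjusted p = 0.141, edgeR). The genes of phagocytosis and lysosomes ran from -1.50 to 0.47, and 5 of the 16 were higher. The ctrl groups did not overlap for 3 of them with AA14 lower and for 2 with AA14 higher. Over all 22630 genes these counts were 4559 lower and 3976 higher. In this list Grn, which encodes the lysosomal protein progranulin, averaged 22.4 ± 4.62 CPM in ctrl AA14 and 41.8 ± 7.39 CPM in ctrl vehicle (log2 -0.90, SE 0.28, adjusted p = 0.141, edgeR). Grn also split by Malat1, lying between 17.0 and 28.5 CPM in the 5 Malat1-rich libraries and between 34.96 and 49.6 CPM in the other 7. Trem2, a receptor that signals through Tyrobp, stood at -0.52 (SE 0.25, adjusted p = 0.230, edgeR), and Fcer1g, an adaptor of the same kind, at -0.08. Plcg2, an enzyme downstream of them, stood at -0.01.

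Markers of single other immune cell types were low. Neutrophil markers summed to between 3.09 and 18.3 CPM, monocyte markers to between 4.13 and 10.3 CPM, T and NK cell markers to between 4.14 and 10.8 CPM, and mast cell markers to between 0 and 5.13 CPM. B and plasma cell markers summed to 10.9 to 37.0 CPM. The 7 MHC class II genes summed to 108 to 223 CPM, and 8 general leukocyte genes to 38.7 to 78.0 CPM. In AA14-treated ctrl mice 6 of 6 neutrophil and 5 of 6 monocyte markers were higher. So were 7 of 8 T and NK cell and 5 of 6 B and plasma cell markers. Dendritic cell markers were split, with 4 of 7 higher, and 3 of 4 mast cell markers were lower. Of the 7 MHC class II genes 4 were lower, and of the 8 general leukocyte genes 5 were lower. None of these was called in edgeR, and 50.9% of all genes were lower. The median SE was 0.99 for neutrophil and 0.85 for T and NK cell markers, against 0.23 for the 10 genes. The part of these lists in the values of the 10 was not tested.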

How the data were processed

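RNA-seq of dispersed mouse pituitary was measured in 12 libraries, 3 per group. Each library has a table of raw counts, deposited by the authors. HISAT2 2.0.0 was the mapper, per the labels' protocols. The submitters' processing notes name GRCm38, DESeq 1.8.3 and featureCounts 1.5.0-p3. No source used here gives the annotation release, the strand setting or how reads fitting several genes were counted. Of 55421 gene IDs, 55154 matched a symbol; IDs without one held at most 0.0135% of counts.

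Counts were tested in edgeR 4.0.16 (R 4.3.3) with filterByExpr, TMM factors and the quasi-likelihood F test, 1 mean per group over 12 libraries, with Benjamini-Hochberg adjustment over 22630 genes and a threshold of 0.05. The SE is the log2 fold change over the square root of F. Alternatives were DESeq2 1.42.0, limma-voom 3.58.1 with quality weights, other size factors and filters, a replicate block, a Malat1 term, and fits without libraries. Library totals were 48693682 to 73388221 counts; the common coefficient of variation was 0.445. Named genes were the 10 genes, genes of the listed pathways, and the 10 genes most like the mean of the 10 by Pearson r of log2(CPM + 0.5). Members and lists were chosen with earlier results of these data known. Promoter windows came from RefSeq (GRCm38.p6), coordinates from GENCODE M21. One further transcription factor is not reported here.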

Additional observations from a re-analysis of the deposited data

How the results depend on the processing

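No gene of the 10 was past the threshold in any of the 5 comparisons, under every alternative run except limma-voom for AA14 in ctrl mice, where 1 was (Cx3cr1, -0.96). That fit called 3409 of 22630 genes in all. The median of the 10 lay between -0.49 and -0.23 for cre under vehicle, and between 0.29 and 0.63 for the interaction, with 1 library left out at a time. The interaction median was 0.323 without the 3 libraries rich in oligodendrocyte markers and 0.325 with Malat1 as a term. Over 850 values of single genes under alternatives, 771 kept their direction and side of the threshold and 78 changed sign. None of the 78 was past the threshold, and the cause was not tested. Counting error was at most 7.37%, for Aif1 in its lowest library.

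On the log2 scale, the genes that changed sign were these. With RLE size factors the changed values were Aif1 0.016 (AA14 in ctrl mice), and Aif1 -0.015 (the interaction). With upper-quartile factors the changed values were Aif1 0.11 (AA14 in ctrl mice), Cd68 -0.052 and Mrc1 -0.011 (cre under AA14), and Aif1 -0.065 (the interaction). With a minimum mean of 1 CPM the changed values were Aif1 0.025 (AA14 in ctrl mice), Cd68 -0.0076 (cre under AA14), and Aif1 -0.0082 (the interaction). With DESeq2 the changed values were Aif1 0.016 (AA14 in ctrl mice), and Aif1 -0.014 (the interaction). With limma-voom the changed values were Aif1 0.075 and Mrc1 0.075 (AA14 in ctrl mice), Csf1r 0.034 and Cx3cr1 0.034 (AA14 in cre mice), Mrc1 0.13 (cre under vehicle), Cd68 -0.12 (cre under AA14), and Cd68 -0.093 and Aif1 -0.012 (the interaction). With only the groups compared in the fit the changed values were Aif1 0.00042 (AA14 in ctrl mice), and Cd68 -0.0023 (cre under AA14). With the 3 oligodendrocyte-rich libraries left out the changed values were Mrc1 0.31 (AA14 in ctrl mice), Csf1r 0.047, Cx3cr1 0.17 and Aif1 -0.077 (AA14 in cre mice), Cd68 0.070 and Mrc1 0.22 (cre under vehicle), Cd68 -0.047, Aif1 0.074 and Mrc1 -0.031 (cre under AA14), and Cd68 -0.12 and Mrc1 -0.25 (the interaction). With Malat1 as a term the changed values were Mrc1 0.29 (AA14 in ctrl mice), Csf1r -0.19, Aif1 0.19 and Mrc1 -0.24 (cre under AA14), and Csf1r -0.027 and Mrc1 -0.12 (the interaction).

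With 1 library left out at a time, the ranges that crossed 0 were these. AA14 in ctrl mice gave Aif1 -0.22 to 0.48 and Mrc1 -0.42 to 0.21. AA14 in cre mice gave Csf1r -0.35 to 0.060, Cx3cr1 -0.29 to 0.18, Aif1 -0.070 to 0.19, C1qa -0.077 to 0.18, C1qb -0.15 to 0.24 and C1qc -0.049 to 0.20. Cre under vehicle gave Cx3cr1 -0.57 to 0.18, Aif1 -0.26 to 0.43, Csf1r -0.68 to 0.0053 and Mrc1 -0.54 to 0.093. Cre under AA14 gave Cd68 -0.049 to 0.14, Aif1 -0.16 to 0.099, C1qc -0.18 to 0.053, Tyrobp -0.0081 to 0.24, C1qb -0.045 to 0.34 and Mrc1 -0.054 to 0.15. The interaction gave Aif1 -0.46 to 0.23 and Mrc1 -0.031 to 0.60.

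With the replicate number as a block the medians were -0.31 (AA14 in ctrl mice), 0.079 (AA14 in cre mice), -0.32 (cre under vehicle), 0.10 (cre under AA14) and 0.47 (interaction). No gene of the 10 was called with the block, and Aif1 changed sign to 0.052 (AA14 in ctrl mice) and -0.0053 (interaction). Deviations of same-numbered libraries from their group means had correlations of -0.32, 0.09 and -0.33 for AA14 in ctrl mice, -0.39, -0.47 and 0.22 for AA14 in cre mice, 0.36, -0.56 and -0.21 for cre under vehicle, and 0.19, -0.025 and -0.074 for cre under AA14. In no comparison were all 3 above 0.1, and the labels tie the numbers to nothing, so the numbers were not taken to pair the libraries.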

Other observations

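Cre AA14 1 held Cd14, a receptor for bacterial lipopolysaccharide on macrophages and other cells, at 46.0 CPM, against 2.48 to 5.77 CPM in the other 11 libraries. The 10 macrophage genes there summed to 192 CPM, inside the range of 132 to 235 CPM over all libraries. Laptm5, a lysosomal protein of blood cells, lay between 3.91 and 7.44 CPM in the 5 Malat1-rich libraries and between 14.6 and 27.2 CPM in the other 7. Ptprc, which encodes the leukocyte surface protein CD45, lay the other way, between 6.29 and 10.8 CPM in those 5 and between 3.75 and 5.74 CPM in the other 7. Both belong to the list of 8 general leukocyte genes, whose sum overlapped (38.7 to 55.8 CPM in those 5 and 47.4 to 78.0 CPM in the other 7). Cd14, Laptm5 and Ptprc were chosen after their values were seen, and no cause was tested.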
